A study of Mus musculus with 5 samples.

Results

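Heart muscle burns mostly fatty acids and holds a small reserve of them as triglyceride in lipid droplets. Expression of 10 genes that build, coat and break down these droplets was compared between mouse hearts after a diet rich in fat and sucrose and mouse hearts after chow, all following intravenous iron. The genes were Gpam, Agpat3, Lpin1, Dgat1, Dgat2, Pnpla2, Lipe, Plin2, Plin4 and Plin5, taken by symbol from the 49315 genes of each count table; all 10 were found and all 10 passed the filter on low counts. In hearts of the high-fat, high-sucrose group 7 of the 10 rose, from 1.22-fold for Plin5 to 4.83-fold for Gpam, and none fell, where 19.4% of all genes tested were higher and 18.7% lower. The call of Plin5 was lost under 5 of 15 alternative settings, and the other 6 kept theirs under all 15.

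Poly-A enriched RNA was prepared from 10 mg of frozen whole mouse heart. The HFHS-Fe group (3 libraries) had eaten the high-fat, high-sucrose diet and the chow-Fe group (2 libraries) standard chow, both for 18 weeks. Iron dextran, in which the polysaccharide dextran carries the iron, was given to both groups once into a vein; hearts were rinsed with saline by perfusion and taken after 48 hours. Because every mouse had received iron, the comparison is of diet in the presence of iron, and no effect of iron was measured. Genotype, strain, sex and age are not given in the labels used here. Nothing in the labels says that the libraries are separate mice, so p-values measure the spread between these libraries, which may be technical.

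Triglyceride is built in steps on glycerol 3-phosphate. Glycerol-3-phosphate acyltransferases (GPAT, of which Gpam encodes a mitochondrial form) add the first fatty acid, and lysophosphatidate acyltransferases (AGPAT) add the next. Lipins (LPIN) remove the phosphate to leave diacylglycerol, and diacylglycerol acyltransferases (DGAT) add the last fatty acid. Perilipins coat the droplet. Lipolysis starts with adipose triglyceride lipase, encoded by Pnpla2, and goes on with hormone-sensitive lipase, encoded by Lipe. In heart muscle, PLIN5 is known for holding droplets close to mitochondria, and several of these genes are known targets of the PPAR nuclear receptors, which bind DNA at copies of AGGTCA.

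The sequence before the start sites is shown for the 3 members with the largest fold changes (Gpam, Plin4 and Lpin1) and for the other 2 members that held the half-site AGGTCA (Plin5 and Plin2), so that genes that rose and 1 that did not can be read side by side. Each line is the 250 bases before a RefSeq start site (GRCm38.p6, gene strand, 5′ to 3′), with AGGTCA on either strand in capitals.
Gpam, downstream start: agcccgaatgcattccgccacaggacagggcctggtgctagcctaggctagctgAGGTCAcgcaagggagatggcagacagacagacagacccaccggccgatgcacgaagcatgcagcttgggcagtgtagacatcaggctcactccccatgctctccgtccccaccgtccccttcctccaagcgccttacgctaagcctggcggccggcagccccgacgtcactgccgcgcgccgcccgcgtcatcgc
Gpam, upstream start: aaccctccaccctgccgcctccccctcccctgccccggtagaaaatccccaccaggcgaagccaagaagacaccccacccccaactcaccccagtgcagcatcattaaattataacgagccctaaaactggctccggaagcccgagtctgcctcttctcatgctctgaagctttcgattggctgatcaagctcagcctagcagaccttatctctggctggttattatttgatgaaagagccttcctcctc
Lpin1: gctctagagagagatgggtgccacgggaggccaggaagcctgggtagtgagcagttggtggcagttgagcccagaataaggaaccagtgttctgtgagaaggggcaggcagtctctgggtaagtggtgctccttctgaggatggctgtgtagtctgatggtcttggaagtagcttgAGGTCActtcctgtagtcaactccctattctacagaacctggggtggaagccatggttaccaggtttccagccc
Plin4: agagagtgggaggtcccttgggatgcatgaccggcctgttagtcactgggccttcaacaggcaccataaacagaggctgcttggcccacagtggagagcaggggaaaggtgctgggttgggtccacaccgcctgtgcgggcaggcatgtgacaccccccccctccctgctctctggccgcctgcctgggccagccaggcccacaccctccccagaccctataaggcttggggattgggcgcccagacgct
Plin5, distal start: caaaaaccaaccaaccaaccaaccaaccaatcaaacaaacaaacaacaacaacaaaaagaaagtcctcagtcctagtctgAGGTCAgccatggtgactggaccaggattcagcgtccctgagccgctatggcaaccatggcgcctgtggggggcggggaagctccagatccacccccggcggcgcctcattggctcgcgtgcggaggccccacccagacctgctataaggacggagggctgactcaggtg
Plin2: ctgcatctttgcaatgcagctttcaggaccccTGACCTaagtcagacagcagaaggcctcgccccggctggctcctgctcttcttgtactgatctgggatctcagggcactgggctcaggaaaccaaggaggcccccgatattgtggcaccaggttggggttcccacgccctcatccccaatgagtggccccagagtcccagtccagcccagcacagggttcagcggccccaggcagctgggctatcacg
The windows lie at chr19:55099478-55099727 and chr19:55127239-55127488 for Gpam, chr12:16610967-16611216 for Lpin1, chr17:56109783-56110032 for Plin4, chr17:56117549-56117798 for Plin5 and chr4:86670060-86670309 for Plin2, all on the minus strand. RefSeq windows were matched for 8 of the 10 genes (11 windows); Dgat1 and Dgat2 were not matched. The half-site AGGTCA was searched on both strands and was found in 4 of the 11 windows, those of Gpam (first base at -196 from the start site), Lpin1 (-74), Plin5 (-170) and Plin2 (-218). It occurs in 14.0% of all 32851 windows of this length. The direct repeat AGGTCANAGGTCA, which contains the half-site, was in none of the 11 windows and in 0.0335% of all windows. The E-box CACGTG was in 1 of the 11 windows, at -155 of 1 start of Lipe, and in 6.02% of all windows. Among the 4 genes with a half-site, 3 (Gpam, Lpin1 and Plin5) passed the test of expression as higher and Plin2 did not pass, while Plin4, Agpat3 and Pnpla2 were higher without the half-site in these windows. A match is a description of letters and not a binding site.

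The libraries held 14362766 to 17774735 counts, with 30.3% to 33.8% of them on mitochondrially encoded genes. By the quasi-likelihood test of edgeR, run on 14221 genes, 19.4% were higher and 18.7% lower in HFHS-Fe hearts at a Benjamini-Hochberg adjusted p of 0.05, so 50.9% of calls were higher; with library size alone as the scaling 37.5% were. Fold changes followed exon length: the median log2 fold change was -0.47 for the shortest and 0.32 for the longest genes when all were cut into 10 bins of equal size. When offsets took out the trend that each library showed with exon length and GC content, 14.5% of 14193 genes were higher and 16.5% lower. The 7 members called higher are therefore read against 19.4%, or against 14.5% with the offsets, under which 7 were also higher. The median log2 fold change of the 10 genes was 0.36, and 0.42 with the offsets, beside -0.01 and -0.03 over all genes tested. The HFHS-Fe and chow-Fe values did not overlap for 6 of the 10 genes, each of them higher, where 58.5% of all tested genes did not overlap in either direction. Lack of overlap by itself was thus about as common among the 10 genes as among all genes tested.

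**Figure D1:**
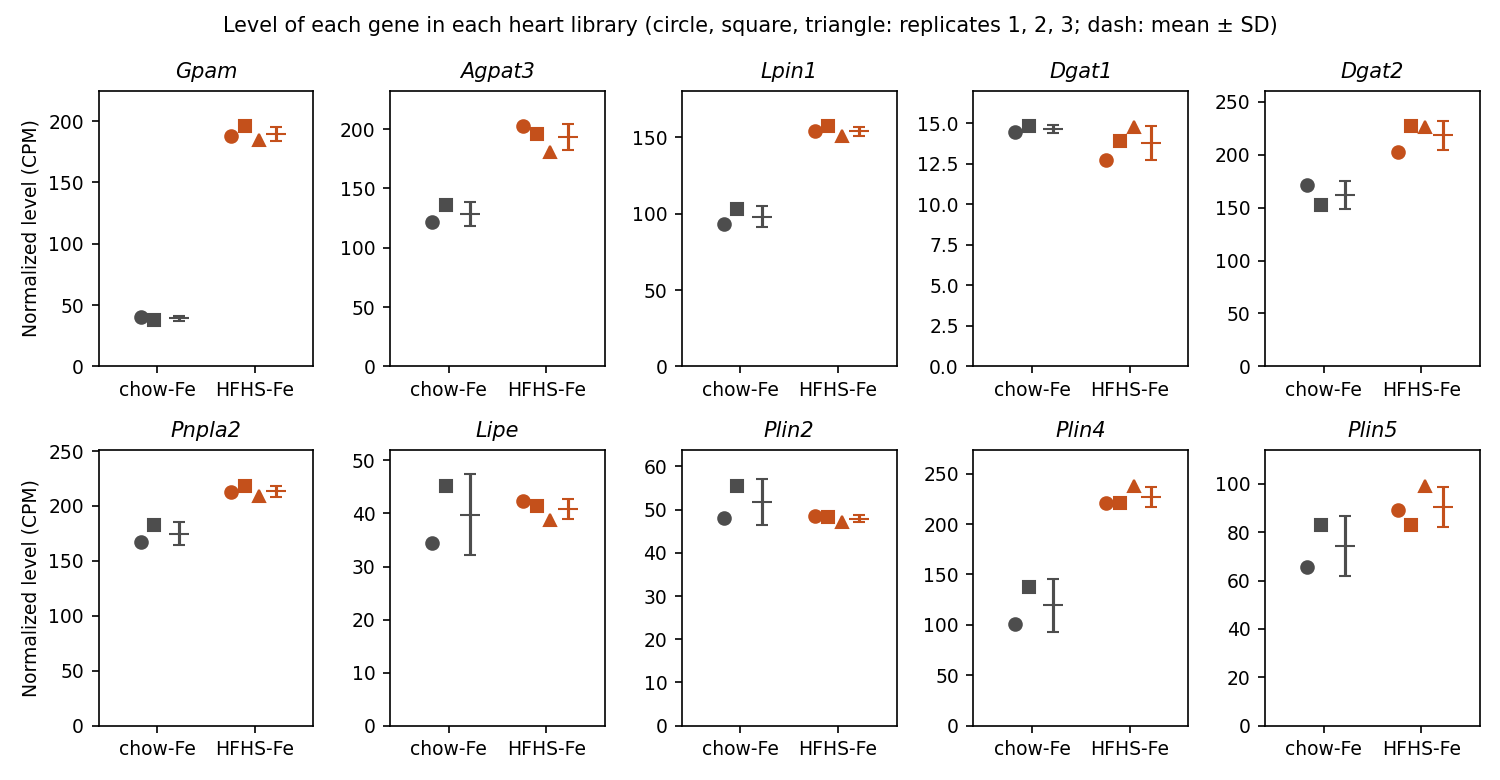
Level of each of the 10 genes in CPM (counts scaled to a common library size, vertical axis from 0) in the 2 chow-Fe (grey) and 3 HFHS-Fe (orange) libraries; symbols mark replicates 1 to 3 and the dash with bars is the group mean ± SD. All 3 HFHS-Fe points lie above both chow-Fe points for Gpam, Agpat3, Lpin1, Dgat2, Pnpla2 and Plin4, and the groups overlap for Dgat1, Lipe, Plin2 and Plin5.

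Gpam (ENSMUSG00000024978, chromosome 19 from 55069734 to 55099451, minus strand, GRCm38) changed most. Its level in CPM, scaled to TMM-adjusted library sizes, was 188.0, 195.6 and 184.3 in the HFHS-Fe libraries and 40.6 and 37.8 in the chow-Fe libraries. Every HFHS-Fe library was far above both chow-Fe libraries, and the spread within each group was small beside the gap. The log2 fold change was 2.27 (SE 0.0808) with an edgeR adjusted p of 1.70e-09, the smallest p of all 14221 genes tested. Its exon length of 3832 bases lies in a bin whose median log2 fold change was -0.04, and the length and GC offsets left the value at 2.27. The counted gene model ends just short of the downstream start printed above and does not reach the upstream start. At its other end the model stops at 55069734, while the gene in the GENCODE M21 annotation runs on to 55067268. Reads of exons beyond either end of the model were not part of the count. The exon length, TPM and family share of Gpam are those of the counted model.

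The next enzymes of synthesis rose by smaller amounts. Agpat3 (ENSMUSG00000001211, chromosome 10 from 78269178 to 78352489), which acylates lysophosphatidate, was at 202.1, 195.7 and 180.8 CPM in HFHS-Fe hearts and at 121.4 and 135.8 CPM in chow-Fe hearts. The groups did not overlap, and the log2 fold change was 0.58 (SE 0.0802; edgeR adjusted p = 6.52e-05). Agpat3 has 7577 bases of exon, in a bin of long genes with a median of 0.21, and with the offsets its log2 fold change was 0.36 (adjusted p = 0.00441). Lpin1 (ENSMUSG00000020593, chromosome 12 from 16535669 to 16589770), the main phosphatidate phosphatase of muscle, was at 154.0, 157.2 and 151.1 CPM against 93.2 and 102.8 CPM. The HFHS-Fe libraries lay close to each other and all stood above both chow-Fe libraries, with a log2 fold change of 0.65 (SE 0.0753, edgeR adjusted p = 1.50e-05). The counted model of Lpin1 ends at 16589770 and does not reach the start printed above, whose window begins at 16610967. Reads of any exons between them were not part of the count.

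Of the enzymes of the last step, Dgat2 passed and Dgat1 did not. Dgat2 (ENSMUSG00000030747, chromosome 7 from 99153658 to 99182719) was at 202.8, 226.6 and 225.7 CPM in HFHS-Fe hearts and 171.3 and 152.8 CPM in chow-Fe hearts. Every HFHS-Fe library was above both chow-Fe libraries, with a log2 fold change of 0.43 (SE 0.0805; edgeR adjusted p = 0.000781). Dgat1 (ENSMUSG00000022555, chromosome 15 from 76502015 to 76511951), which catalyses the same reaction but belongs to an unrelated protein family, was at 12.7, 13.9 and 14.8 CPM and at 14.5 and 14.8 CPM. Its groups overlapped and its log2 fold change of -0.09 (SE 0.116) did not pass, with an adjusted p of 0.593. The difference between the fold changes of Dgat1 and Dgat2 was compared only through their shares within each library, given with the other families.

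Of the lipases, Pnpla2 (ENSMUSG00000025509, chromosome 7 from 141455198 to 141460743) was at 212.4, 218.4 and 209.1 CPM in HFHS-Fe hearts and 167.3 and 182.4 CPM in chow-Fe hearts. The groups did not overlap and the rise was small, with a log2 fold change of 0.29 (SE 0.0721, edgeR adjusted p = 0.00621). Over the 15 alternatives the log2 fold change of Pnpla2 was 0.19 at the lowest. Its adjusted p reached 0.0472, just under the threshold. Lipe (ENSMUSG00000003123, chromosome 7 from 25379527 to 25398710) was at 42.4, 41.4 and 38.7 CPM against 34.3 and 45.2 CPM. The chow-Fe libraries lay below and above all 3 HFHS-Fe libraries, so the direction of its log2 fold change of 0.04 (SE 0.109; adjusted p = 0.819) depends on which of them is used. An antisense gene, 4732471J01Rik, covers 15.6% of the exon bases of Lipe and had 7 to 14 counts per library, against 573 to 815 for Lipe.

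Of the droplet coat genes, Plin4 and Plin5 passed as higher and Plin2 did not pass. Plin4 (ENSMUSG00000002831, chromosome 17 from 56100591 to 56109803), a perilipin of fat and striated muscle, was at 220.8, 220.5 and 237.9 CPM in HFHS-Fe hearts and 100.8 and 137.7 CPM in chow-Fe hearts. The chow-Fe libraries were uneven but both lay well below the HFHS-Fe libraries, and the log2 fold change was 0.93 (SE 0.108; edgeR adjusted p = 1.63e-05). Plin5 (ENSMUSG00000011305, chromosome 17 from 56111601 to 56117596), its neighbour on the same strand and the perilipin of oxidative tissue, was at 89.1, 83.0 and 99.2 CPM against 65.6 and 83.1 CPM. Chow-Fe replicate 2 reached the lowest HFHS-Fe library, and the log2 fold change of 0.28 (SE 0.104; edgeR adjusted p = 0.0452) lost its call without chow-Fe replicate 1 (0.12, adjusted p = 0.397), HFHS-Fe replicate 1 (0.30, adjusted p = 0.0984) or HFHS-Fe replicate 3 (0.22, adjusted p = 0.143). It also lost it with library size alone (0.19, adjusted p = 0.180) and with the replicate block (0.22, adjusted p = 0.0624). With the length and GC offsets it was 0.48 (adjusted p = 0.00222). Plin5 has 2087 bases of exon, in a bin of short genes with a median of -0.32. The range of the adjusted p over all alternatives was 0.00222 to 0.397. Plin2 (ENSMUSG00000028494, chromosome 4 from 86648386 to 86670060), the perilipin of most non-fat cells, was at 48.5, 48.3 and 47.1 CPM against 48.0 and 55.5 CPM, and its log2 fold change of -0.11 (SE 0.086; adjusted p = 0.342) did not pass.

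**Figure D2:**
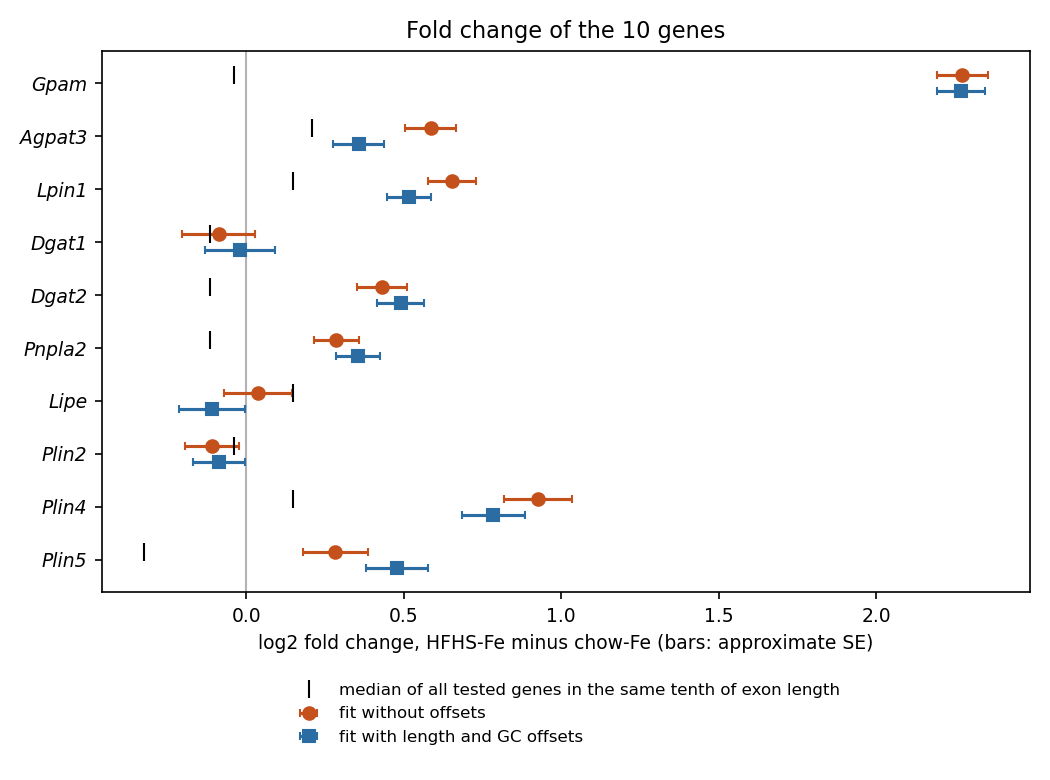
Log2 fold change of each gene (horizontal axis, HFHS-Fe minus chow-Fe) with its approximate standard error, without (orange circles) and with (blue squares) the length and GC offsets; black ticks are the median of all tested genes in the same 1 of the 10 bins of exon length. Gpam is at 2.27 in both fits, 6 other genes are above 0 beyond their error, and Dgat1, Lipe and Plin2 lie near 0. Of these last genes, Plin2 in both fits and Lipe with the offsets are below 0 by slightly more than their error.

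The chow-Fe libraries also differed from each other in these genes. Chow-Fe replicate 2 was above chow-Fe replicate 1 for 8 of the 10 genes, all except Gpam and Dgat2, while this held for 7111 of the 14221 genes tested. The gap was largest in proportion for Plin4, Lipe and Plin5. With 2 chow-Fe libraries, no more can be said of it than these values.

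Levels of different genes can be compared only per length, here as TPM, the length-scaled counterpart of CPM, from the counts and the exon lengths in the files. In chow-Fe hearts the order was Pnpla2 (111.9 ± 9.89 TPM, SD, n = 2), Dgat2 (101.3 ± 5.42), Plin5 (68.9 ± 13.3), Plin4 (40.0 ± 9.80), Lpin1 (33.1 ± 3.19), Agpat3 (32.8 ± 3.49), Plin2 (28.5 ± 3.72), Gpam (19.7 ± 0.448), Lipe (13.1 ± 2.88) and Dgat1 (9.27 ± 0.397). The ranges of Pnpla2 and Dgat2 overlapped, as did those of each neighbouring pair from Plin4 down to Plin2. In HFHS-Fe hearts Gpam moved from the eighth place to the third, at 94.3 ± 2.83 TPM (SD, n = 3), behind Dgat2 (135.2 ± 9.05 TPM) and Pnpla2 (134.8 ± 2.94 TPM), whose ranges overlapped. Plin5 (82.7 ± 7.79 TPM) and Plin4 (74.8 ± 3.65 TPM) overlapped in HFHS-Fe hearts but not in chow-Fe hearts. Dgat1 (8.63 ± 0.694 TPM) and Lipe (13.2 ± 0.550 TPM) stayed the lowest. The exon length in the files joins all annotated exons of a gene, so the TPM of a gene with long unused exons is too low.

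Each enzyme step has several genes, and their shares were compared within each library. Among the 4 GPAT genes, Gpam made up 76.9%, 77.8% and 78.2% of the counts per kilobase in HFHS-Fe hearts and 48.6% and 46.7% in chow-Fe hearts, a difference of 30.0 percentage points. The level of the next GPAT genes was also higher: Gpat3 rose 1.35-fold (edgeR adjusted p = 0.00429) and Gpat4 1.21-fold (edgeR adjusted p = 0.0199), both enzymes of the endoplasmic reticulum. On the opposite strand 4930458D05Rik, with 30 to 62 counts, covers 30.0% of the exon bases of Gpat3. The call of Gpat4 was lost with the length and GC offsets (0.09 on the log2 scale, adjusted p = 0.401), with library size alone (0.18, adjusted p = 0.106) and without HFHS-Fe replicate 1, HFHS-Fe replicate 2 or chow-Fe replicate 1 (adjusted p = 0.0822, 0.0686 and 0.0817). The summed level of the GPAT genes was 121.4 ± 3.71 TPM (SD, n = 3) against 41.4 ± 0.252 TPM (SD, n = 2).

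In the AGPAT genes the sum overlapped between the groups (103.6 ± 1.51 TPM, SD, n = 3, against 100.6 ± 8.52 TPM, SD, n = 2) and the mix differed. Agpat3 made up 49.4%, 47.9% and 43.5% of the family in HFHS-Fe hearts and 32.1% and 33.1% in chow-Fe hearts. Agpat2, the form that fat tissue depends on, went the other way, from 36.0 ± 0.848 CPM (SD, n = 2) to 27.8 ± 0.359 CPM (SD, n = 3), or 1.30-fold lower (edgeR adjusted p = 0.00373). With the offsets its log2 fold change was -0.18 (edgeR adjusted p = 0.124). On the opposite strand Egfl7, with 898 to 2124 counts, covers 3.00% of the exon bases of Agpat2. Egfl7 was also lower, 1.75-fold (edgeR adjusted p = 2.53e-06), and its part in the Agpat2 counts was not tested. Agpat4 was 1.78-fold lower (edgeR adjusted p = 0.00751) with only 34 to 93 counts per library, and missed the threshold with offsets and replicate block together (adjusted p = 0.053). Agpat1 and Agpat5 did not pass, with log2 fold changes of -0.13 and -0.22, although Agpat5 passed as lower with the offsets (-0.50, adjusted p = 0.00167) and with library size alone (adjusted p = 0.0281), and Agpat1 with the replicate block (-0.26, adjusted p = 0.0404).

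Lpin1 was the main lipin in both groups, with 92.6%, 94.3% and 92.6% of the family in HFHS-Fe hearts and 88.3% and 86.2% in chow-Fe hearts. Lpin2 and Lpin3 did not pass, with log2 fold changes of 0.005 and -0.52. Lpin3 passed as lower with library size alone (adjusted p = 0.0367), with no filter on low counts (adjusted p = 0.0366) and without chow-Fe replicate 1 (-0.75, adjusted p = 0.022). Dgat2 made up 94.0%, 94.2% and 93.8% of the DGAT counts per kilobase in HFHS-Fe hearts and 92.1% and 91.1% in chow-Fe hearts. Among the perilipins, Plin4 went from 15.8% and 17.6% in chow-Fe hearts to 26.6%, 27.0% and 27.5% in HFHS-Fe hearts. Plin3, the perilipin found throughout the body, went from 43.4% and 41.4% to 34.1%, 35.0% and 31.8%, and Plin2 from 12.4% and 11.7% to 9.60%, 9.73% and 8.95%, while neither changed in level by the test (adjusted p = 0.386 for Plin3). Plin5 overlapped, at 29.7%, 28.2% and 31.7% against 28.4% and 29.4%, and Plin1, the perilipin of white fat, had 0 to 4 counts per library. By the exact two-sided permutation test over the 3 and 2 libraries, 8 shares and 5 sums were compared. The smallest p this design allows is 0.2, and each share that did not overlap had that p (Benjamini-Hochberg adjusted 0.236); for the Plin5 share p was 0.6 (adjusted 0.65) and for the AGPAT sum 0.8 (adjusted 0.8).

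**Figure D3:**
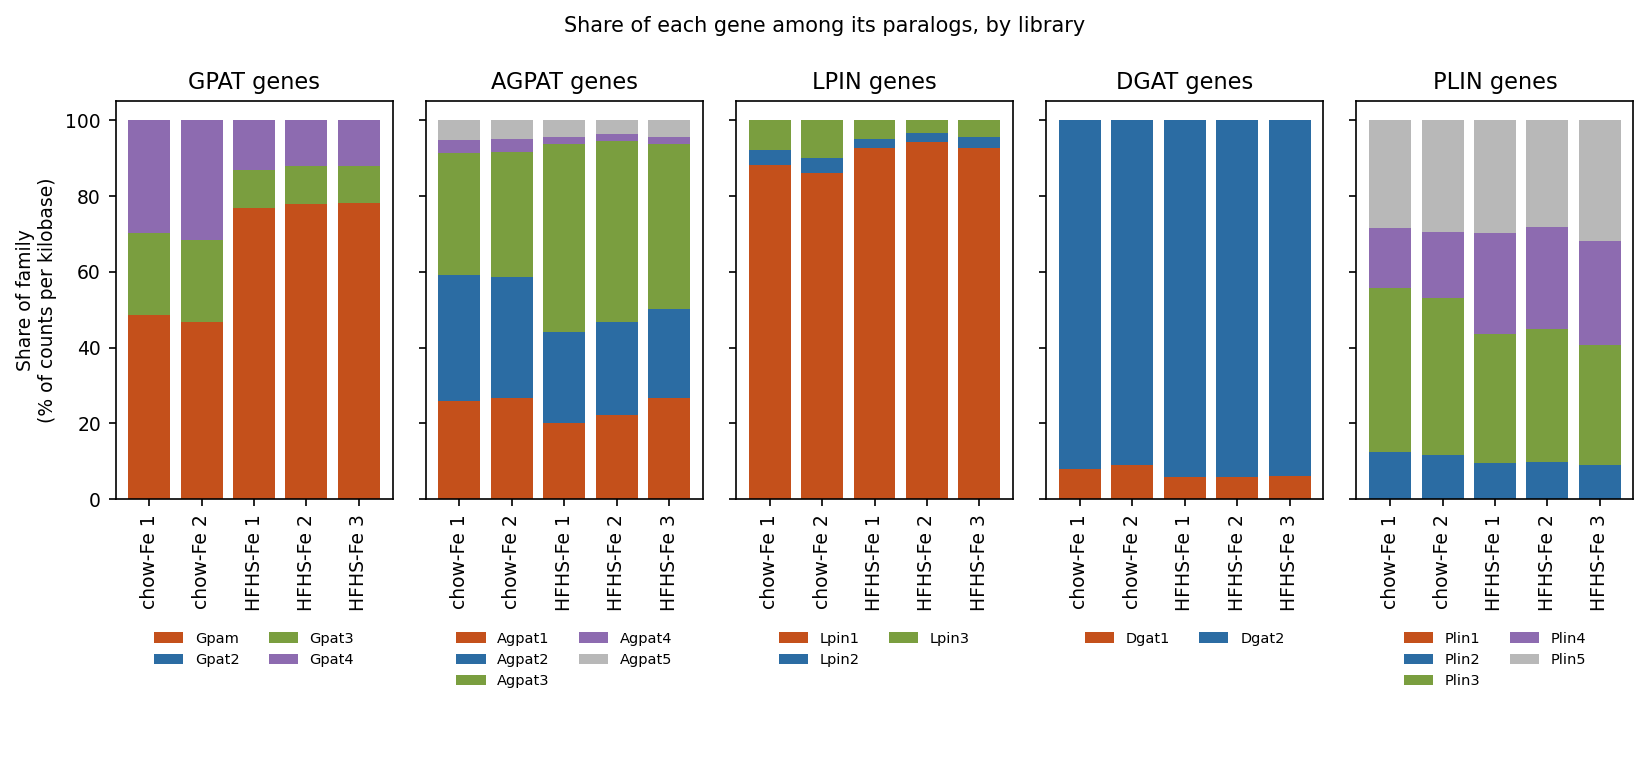
Share of each gene among its paralogs in each library (vertical axis, percent of the family's counts per kilobase of exon; bars in the order chow-Fe 1 and 2, HFHS-Fe 1 to 3). Gpam takes 46.7% to 48.6% of the GPAT bar in chow-Fe hearts and 76.9% to 78.2% in HFHS-Fe hearts, and in HFHS-Fe hearts the shares of Agpat3 and Plin4 are larger and those of Agpat2 and Plin3 smaller.

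The other 37 genes of the pathway, in 4 lists, gave a mixed picture: of 33 tested, 9 rose, 8 fell and 16 did not pass, with a median log2 fold change of -0.01, the same as over all genes. These counts are read against 19.4% higher and 18.7% lower over all genes tested, as are those of each list. With the offsets 11 rose and 9 fell. The 4 genes that supply glycerol 3-phosphate or move glycerol all passed, 3 higher and 1 lower. Gpd1, which makes glycerol 3-phosphate from a glycolysis intermediate, went from 33.5 ± 2.78 CPM (SD, n = 2) to 54.0 ± 3.29 CPM (SD, n = 3), 1.61-fold (edgeR adjusted p = 5.07e-05). Glycerol kinase (Gk) rose 1.47-fold, from 32.5 ± 1.85 to 47.8 ± 1.14 CPM (edgeR adjusted p = 0.000168); with the offsets its log2 fold change of 0.55 was 0.35. Gpd1l rose 1.24-fold (edgeR adjusted p = 0.00984) but not with the offsets (adjusted p = 0.0708), with library size alone (adjusted p = 0.0571) or without chow-Fe replicate 2 (adjusted p = 0.0866). Aqp7, a glycerol channel, was 1.34-fold lower (edgeR adjusted p = 0.00445), except without chow-Fe replicate 1 (adjusted p = 0.0572).

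Of the 11 further acyltransferases and phosphatases 9 were tested, and 3 rose and 2 fell. Besides Gpat3, Gpat4, Agpat2 and Agpat4 this included Mogat2, a monoacylglycerol acyltransferase of the gut named here after its value was seen, with 8 to 25 counts per library (edgeR adjusted p = 0.0389, and 0.151 at most without 1 library).

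Among 8 genes of lipolysis, 1 rose, 2 fell and 5 did not pass, and in this fit those that passed were the partners of the Pnpla2 protein. This did not hold with the offsets, under which 2 rose and 3 fell. Ces1d and Abhd6, named here after their values were seen, were then higher (edgeR adjusted p = 0.0232 and 0.0329). Mgll, likewise named after its value was seen, was then lower (edgeR adjusted p = 0.0462). Abhd5, the co-activator of the Pnpla2 protein, was at 38.5, 36.7 and 40.8 CPM in HFHS-Fe hearts and 32.2 and 28.4 CPM in chow-Fe hearts. It was higher in every HFHS-Fe library, 1.28-fold (edgeR adjusted p = 0.00901), but did not pass with the offsets (adjusted p = 0.0985) or without chow-Fe replicate 2 (adjusted p = 0.0811). G0s2, an inhibitor of the lipase, was at 14.6, 15.6 and 23.2 CPM against 34.3 and 29.2 CPM. All HFHS-Fe libraries were below both chow-Fe libraries, 1.79-fold on average (edgeR adjusted p = 0.000758); with the offsets the log2 fold change of -0.84 was -0.46 and still passed (adjusted p = 0.0268). Hilpda, the other inhibitor, was at 1.81, 1.58 and 1.96 CPM against 4.38 and 3.66 CPM, 2.25-fold lower (edgeR adjusted p = 0.00218), on 22 to 81 counts per library. Lipa, the acid lipase of the lysosome, was at 27.3 ± 3.98 CPM (SD, n = 3) against 34.5 ± 5.89 CPM (SD, n = 2) and did not pass (adjusted p = 0.053), although it did under 5 alternatives, as lower. G0s2 and Hilpda are short genes, in the bin of genes with a median log2 fold change of -0.47.

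Of 14 further lipid droplet genes 12 were tested, and 2 rose, 3 fell and 7 did not pass. Tmem159 (also Ldaf1), a partner of seipin at sites where droplets form, was 1.52-fold lower (edgeR adjusted p = 0.000696), with -0.61 on the log2 scale and -0.37 with the offsets. Aup1, a droplet and endoplasmic reticulum protein, was 1.30-fold lower (edgeR adjusted p = 0.00428); 753 of its exon bases (23.0%) overlap Htra2 on the other strand. Fitm1, the droplet-forming protein of striated muscle, was 1.33-fold lower (edgeR adjusted p = 0.0186), but at -0.06 with the offsets (adjusted p = 0.705). Fitm1 also lost its call without HFHS-Fe replicate 1, HFHS-Fe replicate 2 or chow-Fe replicate 2 (adjusted p = 0.0903, 0.0726 and 0.0669). Hsd17b11, a droplet-bound dehydrogenase, rose 1.21-fold (edgeR adjusted p = 0.022), and so did Fitm2, named here after its value was seen, 1.29-fold (edgeR adjusted p = 0.022, and 0.264 at most without 1 library). Hsd17b11 kept its direction but lost its call when any 1 library other than HFHS-Fe replicate 3 was left out (adjusted p = 0.0517 to 0.086), as well as with library size alone (adjusted p = 0.115) and with DESeq2 (adjusted p = 0.0519).

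**Figure D4:**
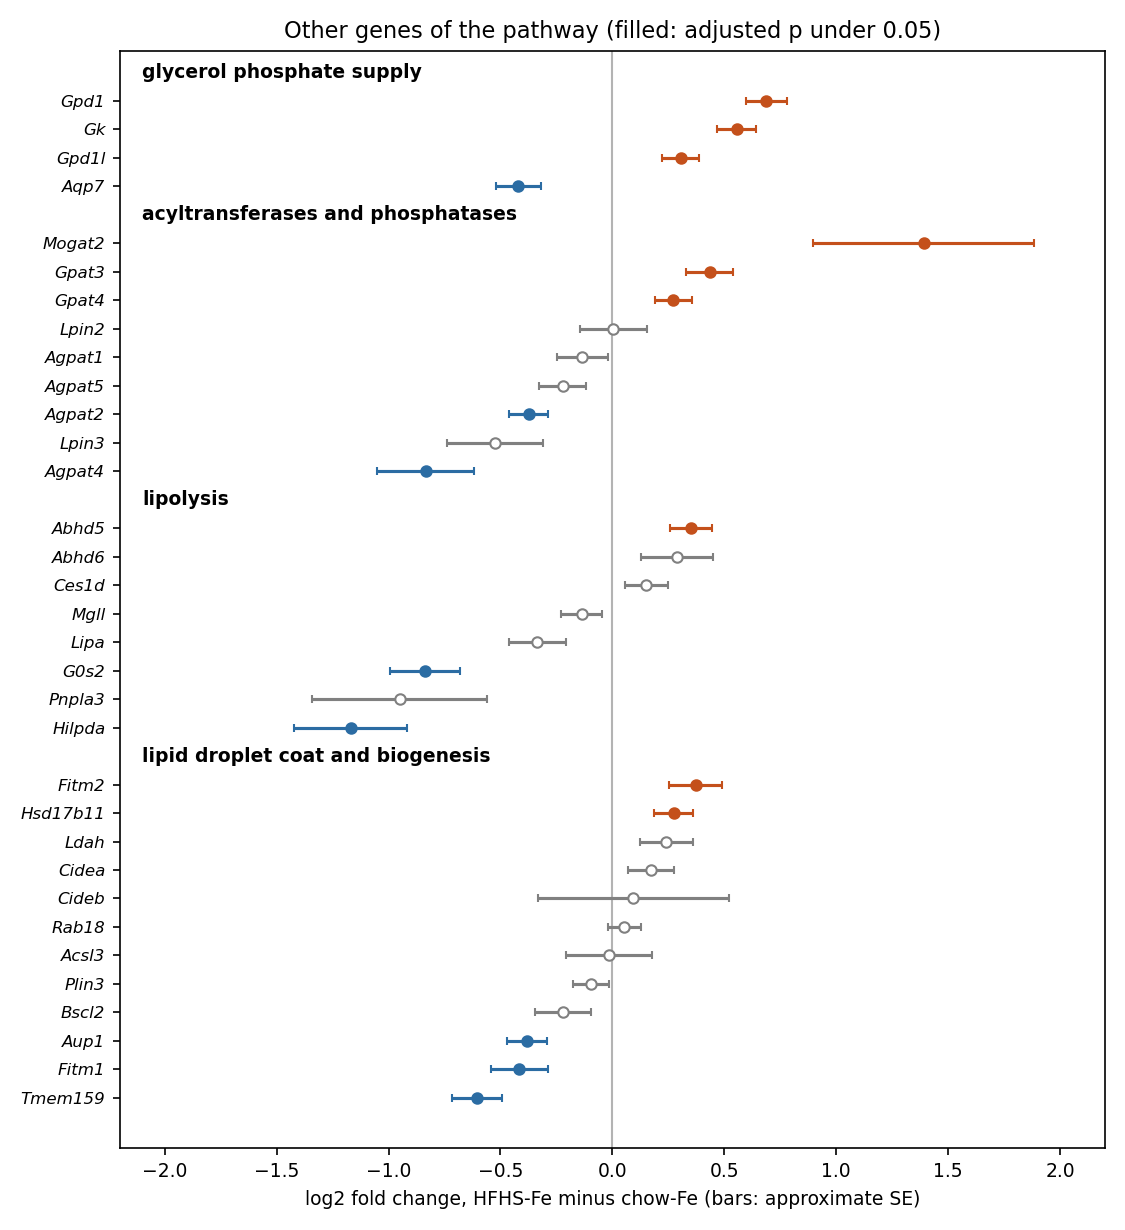
Log2 fold change (HFHS-Fe minus chow-Fe, with approximate standard error) of the 33 tested genes of the 4 other pathway lists; orange is higher, blue lower and open grey did not pass an adjusted p of 0.05. In lipolysis Abhd5 lies above 0 and G0s2 and Hilpda below, and in the supply of glycerol 3-phosphate only Aqp7 lies below 0.

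Markers of fat were read in the same libraries. Of 10 white fat markers, 7 (Adipoq, Cfd, Retn, Lep, Plin1, Cidec and Pck1) had at most 4 counts in any library, and Adipoq had 0 to 1. Plin1 had 3, 3 and 4 counts in the HFHS-Fe libraries and 0 and 0 in the chow-Fe libraries. The groups overlapped for the rest of these low-count markers. Adig had 5 to 34 counts and passed as lower (edgeR adjusted p = 0.0454), though not with the offsets, and Car3, with 1 to 26 counts, did not pass (log2 fold change 2.07, adjusted p = 0.0529). The summed level of the list, in CPM without the TMM factors, was 413.3 to 416.3 CPM in HFHS-Fe hearts and 967.4 to 1145 CPM in chow-Fe hearts. Nearly all of it was Fabp4, which endothelium also expresses, with 5937 to 20314 counts. Fabp4 itself was lower, with a log2 fold change of -1.26 (edgeR adjusted p = 6.23e-08), so the sum does not describe the other white fat markers. Of 6 brown fat markers, Ucp1, Elovl3 and Otop1 had at most 2 counts. The other 3 were present: Slc36a2, with 222 to 345 counts, rose 1.52-fold (edgeR adjusted p = 0.00149). Cidea (360 to 409 counts) and Cpn2 (30 to 44 counts) did not pass, with log2 fold changes of 0.17 and 0.67. With the offsets Cidea passed as higher, with a log2 fold change of 0.53 (edgeR adjusted p = 0.00106), and Cpn2 still did not pass. The brown fat sum, also without the TMM factors, was 45.4 to 48.0 CPM in HFHS-Fe hearts and 37.2 to 39.9 CPM in chow-Fe hearts. The part of these levels in the results above was not tested.

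Markers of other cells of the heart differed between the groups. All 10 fibroblast markers, 10 of 10 macrophage markers, 7 of 7 erythroid markers and 7 of 10 endothelial markers fell. Such counts are read against 19.4% higher and 18.7% lower over all genes tested, or 14.5% and 16.5% with the offsets. With the offsets 8 fibroblast, 10 macrophage, 7 erythroid and 8 endothelial markers were lower. Their summed levels, here in CPM without the TMM factors, in HFHS-Fe and chow-Fe hearts were 1738 to 1749 and 2490 to 2568 CPM (fibroblast), 195.2 to 228.0 and 490.6 to 571.6 CPM (macrophage), 250.4 to 524.3 and 1487 to 1703 CPM (erythroid) and 1037 to 1072 and 1334 to 1361 CPM (endothelium). Of 12 cardiomyocyte markers 5 rose and 5 fell (6 and 4 with the offsets), and their sums overlapped, at 63132 to 67228 and 60596 to 65697 CPM. In bulk tissue, fewer cells of a type and less RNA per cell cannot be told apart, and the part of these shifts in the results above was not tested.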

How the data were processed

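Poly-A RNA of 5 heart libraries (3 HFHS-Fe, 2 chow-Fe) was sequenced. The values are raw counts per gene, as deposited by the authors, 1 table per library. The submitters' processing notes name the build GRCm38 and the tools STAR 2.5.2b, Trimmomatic 0.36, Subread 1.5.2 and featureCounts. For the strand setting and the annotation release the sources used here give nothing, so reads of overlapping genes may be shared. Symbols were matched by gene identifier for 48970 of 49315 genes. GENCODE M21, used for transcript GC content, held 49056 of them.

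The group effect was fitted with glmQLFit and glmQLFTest of edgeR 4.0.16 (R 4.3.3) after filterByExpr and TMM scaling, with p-values adjusted over all genes. An approximate standard error was derived as the fitted coefficient over the root of F. The alternatives tried were RLE factors or library size alone, limma-voom (limma 3.58.1), DESeq2 1.42.0, other filters, no mitochondrially encoded genes, the replicate number as a block, offsets for exon length and transcript GC, smoothed with mgcv 1.9.3 (known for 99.8% of tested genes), and leaving out each library. The fit was tested on simulated data. Intervals of counting error are not given; a count of 0 allows up to 0.169 to 0.209 CPM (3 counts), which covers counting error only.

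The members and lists were chosen with earlier results of these data known. Named genes are the members, their paralogs, the partners of Pnpla2, and the 4 genes of each of 4 pathway lists with the smallest p. Marker lists covered white and brown fat, cardiomyocytes, endothelium, fibroblasts, macrophages, red cells and skeletal muscle. Of 10 skeletal muscle markers 5 were tested and 1 fell, and with the offsets 1 rose and 1 fell. Of 6 brown fat markers 3 were tested and 1 rose, and with the offsets 2 rose.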

Additional observations from a re-analysis of the deposited data

How the results depend on the processing

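Under each of the 15 alternatives Gpam, Agpat3, Lpin1, Dgat2, Pnpla2 and Plin4 stayed called as higher, so that 6 or 7 of the 10 genes were called (6 to 7 when a library was left out); the one that varied was Plin5. Counts of all called genes were 4248 to 4930 when a library was left out, with 5417 in the full set and 3510 of those kept in the same direction with the offsets. Of the pathway genes, 13 to 17 were called without 1 library; in glycerol 3-phosphate supply 3 to 4, in acyltransferases and phosphatases 3 to 4 (5 in the full set), in lipolysis 3 to 5 and in droplet coat and biogenesis 2 to 5. Acyltransferases fell to 2 calls with the offsets and the replicate block together. Lipolysis had 5 calls with library size alone, with no filter and with the offsets; the droplet list had 3 with library size alone and 8 with the offsets. The cause was not tested.

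The direction of the log2 fold change of Lipe turned with library size alone (-0.0574), with the offsets (-0.11), with offsets and block (-0.0570) and without chow-Fe replicate 1 (-0.15, the lowest without 1 library; the highest was 0.25). That of Lpin2 was -0.0895 with library size alone, -0.00353 with no filter, -0.00153 with at least 10 counts in every library, -0.0872 with the replicate block, -0.34 with the offsets, -0.44 with offsets and block, and -0.0864 without HFHS-Fe replicate 3 and -0.0925 without chow-Fe replicate 1, in a range up to 0.11 without 1 library. That of Plin3 was 0.10 with the offsets, 0.13 with offsets and block and 0.0223 without chow-Fe replicate 2, the top of a range from -0.20. None of these 3 genes passed the test under any alternative.

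Differences in share, in percentage points and without 1 library, were 29.0 to 31.0 for Gpam, 13.1 to 16.0 for Agpat3, 4.87 to 6.96 for Lpin1, 1.87 to 2.92 for Dgat2, -2.93 to -2.23 for Plin2, -9.75 to -7.75 for Plin3, 9.46 to 11.2 for Plin4 and 0.011 to 1.80 for Plin5. Without division by length they were 32.2 for Gpam, -4.32 for Plin2, 15.0 for Plin4 and -1.56 for Plin5, which turned direction. The sum of the AGPAT genes was higher in HFHS-Fe hearts by 3.03 TPM, and the difference was -2.999 TPM without chow-Fe replicate 1 and 9.06 TPM without chow-Fe replicate 2.

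Log2 ratios of summed markers (leaving out each library was added after seeing the data) were -1.46 to -1.22 for white fat, 0.23 to 0.33 for brown fat, -0.00381 (without chow-Fe replicate 1, a turned direction) to 0.11 for cardiomyocytes, -0.37 to -0.34 for endothelium, -0.56 to -0.52 for fibroblasts, -1.46 to -1.24 for macrophages, -2.41 to -1.87 for red cells and -0.34 to -0.26 for skeletal muscle. With TMM library sizes they were 0.37 for brown fat, 0.15 for cardiomyocytes, -0.26 for endothelium, -0.44 for fibroblasts and -0.21 for skeletal muscle.

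Nothing in the labels says that equal replicate numbers share an animal or a day. Deviations of same-numbered libraries from their group means correlated at 0.035 and 0.026. With 2 chow-Fe libraries these deviations mirror each other, so the pairs of replicates 1 and 2 with unlike numbers gave -0.035 and -0.026. These values therefore cannot decide whether the libraries are paired. With the replicate block 5332 genes were called, 6 of the 10 members and 19 of the pathway genes. Of the members Plin5 lost its call (0.22, edgeR adjusted p = 0.0624). No chow-Fe library shares the number of HFHS-Fe replicate 3, so in this fit its own block absorbed that library. HFHS-Fe replicate 3 then bore on the group difference only through the scaling and the estimate of spread. Depth limits genes with few counts, among them Agpat4, Hilpda and Mogat2.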
